A study of Danio rerio with 23 samples.

Results

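The genes examined here were the myelin and oligodendrocyte genes of zebrafish larvae. They were chosen by symbol alone: a row of the gene table was taken when its zebrafish symbol, case ignored, was mbp, mag, cldnk, olig1, olig2, sox10, myrf or cnp, or one of these followed by a or b. This gave 9 genes of the 22856 in the table, with mbp represented by mbpa and mbpb. All 9 passed the filter on low counts in every comparison, and the lowest count of any of them in any library was 38, for myrf.

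Myelin is the lipid-rich sheath that lets axons conduct quickly. Oligodendrocytes wrap axons in the brain and spinal cord, and Schwann cells, which descend from the neural crest, wrap them in the peripheral nerves. Transcription factors of the Olig family specify precursors, and oligodendrocytes also need Sox10. Myrf switches on the myelin programme as oligodendrocytes mature.

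RNA was sequenced from whole larvae at 96 hours post fertilization (hpf), so each value covers the brain, spinal cord, peripheral nerves and all other tissues together. The groups were DKO larvae lacking both glo1 and akr1a1a (6 libraries), GLO1KO larvae lacking glo1 (6 libraries), AKR1A1AKO larvae lacking akr1a1a (5 libraries) and WT larvae (6 libraries). GLO1 and AKR1A1A are enzymes that detoxify reactive carbonyl species, and the study asked what their single and combined loss does. Libraries came from clutches of 20 larvae, so the spread between libraries includes that between clutches. All larvae, WT included, carried the endothelial reporter Tg(fli1:EGFP) and were untreated, and the DKO and its WT lines were bred from intercrossed double heterozygotes. The single knockouts had been established individually, so effects of genotype and of fish line cannot be told apart here. The mutations were germline, so every tissue of a knockout larva lacked the enzyme.

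Total counts ran from 34316505 to 36804418 per library. The targeted gene glo1 was at 3.55 ± 0.576 CPM (counts scaled to the size of the library) in DKO, 3.26 ± 0.219 CPM in GLO1KO, 81.3 ± 4.59 CPM in AKR1A1AKO and 81.9 ± 5.78 CPM in WT larvae (SD, n = 6, 6, 5 and 6), and akr1a1a was not analysed here. The glo1 level separates larvae with and without glo1 only, so the akr1a1a genotype of the groups rests on the labels. CPM were scaled by the trimmed mean of M values (TMM). A gene was called higher or lower when edgeR's quasi-likelihood test over all genes gave a Benjamini-Hochberg adjusted p below 0.05 and the fold change exceeded 1.5. Scaled by library size without TMM, DKO against WT had a median log2 fold change of -0.18 over its tested genes (-0.01 with TMM). Directions given here are relative to TMM, and the differences that flip, or lose or gain an adjusted p below 0.05, without it are named for the comparisons with WT.

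Compared with WT, DKO larvae had lower transcript levels of myrf, the transcription factor that drives oligodendrocyte maturation, and of mag, a sialic acid-binding adhesion protein of the sheath surface facing the axon. These 2 of the 9 genes were called lower and none was called higher. Of all 19765 genes tested, 18.0% were called lower, 7.32% higher and 25.3% in either direction. An adjusted p below 0.05 at any fold change was reached by 7 of the 9 genes, 3 of them higher and 4 lower, beside 61.0% of all genes. The remaining 7 genes, among them both copies of the myelin basic protein gene and both Olig genes, did not pass the fold change criterion. The median log2 fold change of the 9 genes was -0.05, beside -0.01 over all genes tested.

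**Figure D1:**
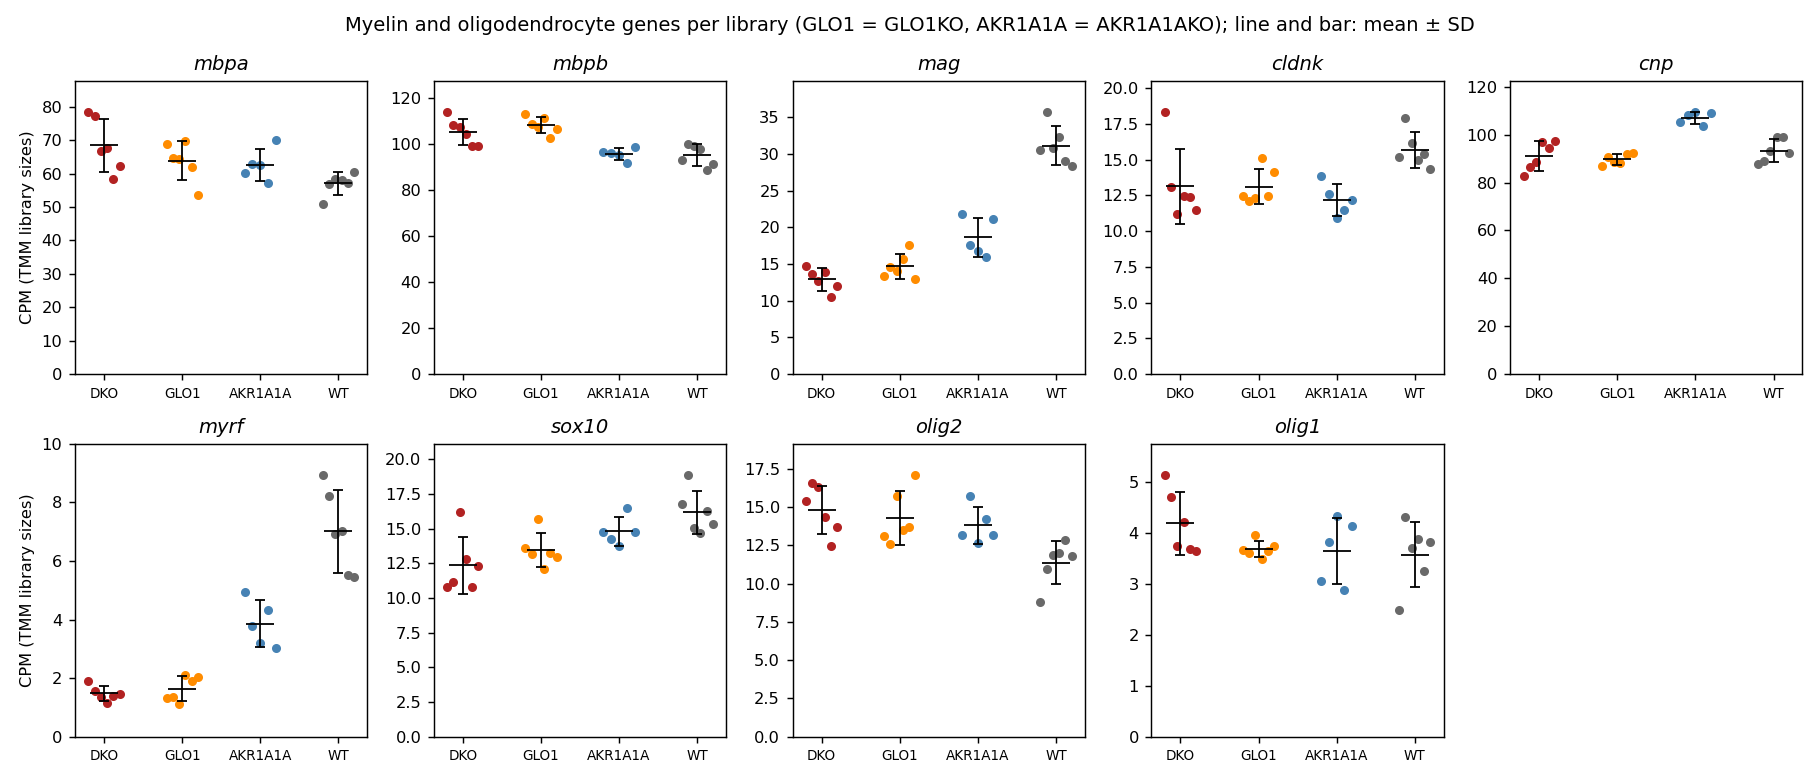
CPM of the 9 genes (vertical axes, starting at 0) in each library, with DKO, GLO1KO (GLO1), AKR1A1AKO (AKR1A1A) and WT larvae from left to right; points are libraries, and the line and bar are the mean ± SD (n = 6, 6, 5 and 6). For mag and myrf all knockout libraries lie below all WT libraries, and for cnp all AKR1A1AKO libraries lie above every other library.

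The largest difference was in myrf (ENSDARG00000078676). Its lowest, median and highest levels were 1.15, 1.44 and 1.92 CPM in DKO and 1.13, 1.64 and 2.12 CPM in GLO1KO larvae. The 5 AKR1A1AKO libraries were at 4.94, 3.80, 3.22, 4.34 and 3.04 CPM. In WT larvae the lowest, median and highest levels were 5.45, 6.97 and 8.93 CPM. AKR1A1AKO libraries therefore lay between the others without overlap, whereas DKO and GLO1KO libraries overlapped.

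Against WT, myrf had a log2 fold change of -2.25 in DKO (standard error 0.154, adjusted p = 2.63e-08), which is 21.0% of the WT level. It was -2.09 in GLO1KO (standard error 0.176, adjusted p = 3.26e-07) and -0.86 in AKR1A1AKO larvae (standard error 0.163, adjusted p = 0.00269). Within the WT group myrf was lowest in WT 5 and WT 6, at 5.52 and 5.45 CPM. Leaving out any 1 library kept each of the 3 calls.

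The same order of genotypes was seen for mag (ENSDARG00000104023). Its lowest, median and highest levels were 10.5, 13.1 and 14.8 CPM in DKO and 13.0, 14.3 and 17.6 CPM in GLO1KO larvae. AKR1A1AKO libraries were at 21.8, 17.6, 16.7, 15.9 and 21.1 CPM. WT larvae were at 28.3, 30.7 and 35.6 CPM. No knockout library reached the lowest WT library, while neighbouring knockout groups overlapped.

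In DKO larvae mag was at 41.2% of WT (log2 fold change -1.28, standard error 0.0833, adjusted p = 1.63e-08). It had a log2 fold change of -1.08 in GLO1KO (standard error 0.0796, adjusted p = 1.09e-07) and -0.74 in AKR1A1AKO larvae (standard error 0.0923, adjusted p = 0.00036). All 3 calls were kept when any 1 library was left out.

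Both copies of the myelin basic protein gene, which encodes the protein that compacts the cytoplasmic faces of the membrane, were at least as high in the knockouts as in WT larvae on the TMM scale. For mbpa (ENSDARG00000036186) the lowest, median and highest levels were 58.5, 67.2 and 78.3 CPM in DKO and 50.8, 57.8 and 60.6 CPM in WT larvae. These ranges overlapped, with 5 of 6 DKO libraries above all WT libraries. Its log2 fold change was 0.25 (adjusted p = 0.0081), below the fold criterion, and 0.07 (adjusted p = 0.379) without TMM. For mbpb (ENSDARG00000089413) the levels were 99.0, 105.7 and 113.6 CPM in DKO and 88.7, 95.4 and 100.1 CPM in WT larvae. These ranges met at their edges, and the log2 fold change of 0.14 (adjusted p = 0.0278) turned to -0.04 (adjusted p = 0.482) without TMM. With TMM, the adjusted p of mbpb was above 0.05 when WT 5, DKO 1 or DKO 2 was left out (at most 0.068).

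The paralogs of mbp are counted as separate genes, and how the counting treated reads that fit both is not given in the sources used here. In GLO1KO larvae mbpa averaged 63.9 ± 5.85 CPM and mbpb 108.1 ± 3.59 CPM (SD, n = 6), with log2 fold changes against WT of 0.16 (adjusted p = 0.0328) and 0.19 (adjusted p = 0.0017). All GLO1KO libraries were above all WT libraries for mbpb. Without TMM these log2 fold changes were 0.04 (adjusted p = 0.599) and 0.06 (adjusted p = 0.222), and the mbpb ranges overlapped, at 104.0 to 109.0 CPM in GLO1KO and 94.1 to 106.0 CPM in WT larvae. The adjusted p of mbpa also rose above 0.05 in 6 of the 12 fits that left out 1 library, with a highest value of 0.0784. In AKR1A1AKO larvae mbpa averaged 62.6 ± 4.83 CPM and mbpb 95.6 ± 2.54 CPM (SD, n = 5), and neither passed the test.

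The claudin gene cldnk (ENSDARG00000042357), whose product is found in the sheaths of zebrafish oligodendrocytes and Schwann cells, averaged 13.2 ± 2.62 CPM in DKO, 13.1 ± 1.24 CPM in GLO1KO, 12.2 ± 1.13 CPM in AKR1A1AKO and 15.7 ± 1.25 CPM in WT larvae (SD, n = 6, 6, 5 and 6). Against WT the log2 fold changes were -0.26 (adjusted p = 0.0453), -0.26 (adjusted p = 0.00738) and -0.36 (adjusted p = 0.00543) in DKO, GLO1KO and AKR1A1AKO larvae, each within the 1.5-fold limit. In DKO the adjusted p was above 0.05 in 9 of the 12 fits that left out 1 library (at most 0.101). One library, DKO 1, was at 18.3 CPM, above the highest WT library at 17.9 CPM. The other 5 DKO libraries, between 11.2 and 13.1 CPM, were below all WT libraries.

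For cnp (ENSDARG00000070822), which encodes an enzyme of non-compact myelin, the single knockout of akr1a1a stood apart. AKR1A1AKO libraries were at 105.4, 108.2, 109.3, 103.7 and 109.1 CPM, above every library of the other groups. DKO, GLO1KO and WT larvae averaged 91.1 ± 6.14, 89.8 ± 2.24 and 93.4 ± 4.80 CPM (SD, n = 6 each). In AKR1A1AKO against WT cnp had a log2 fold change of 0.20 (adjusted p = 0.00665), and in DKO against AKR1A1AKO of -0.24 (adjusted p = 0.000981), both within the 1.5-fold limit. Without TMM cnp was also lower than in WT, by -0.22 in DKO (adjusted p = 0.00201) and -0.18 in GLO1KO larvae (adjusted p = 0.00388) on the log2 scale. On that scale its ranges were 77.6 to 91.6 CPM in DKO and 83.8 to 93.3 CPM in GLO1KO larvae. The WT range of 94.2 to 106.1 CPM overlapped neither. Over all genes, the median log2 fold change against WT on that scale was itself -0.18 in DKO and -0.13 in GLO1KO larvae. The share of all genes without overlap on that scale was not computed.

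None of the 3 other transcription factor genes passed the fold criterion. For olig2 (ENSDARG00000040946), needed for motor neuron and oligodendrocyte precursors, the mean was 14.8 ± 1.59 CPM in DKO and 11.4 ± 1.40 CPM in WT larvae (SD, n = 6 each), and the log2 fold change was 0.37 (adjusted p = 0.00385). It was 0.33 (adjusted p = 0.00795) in GLO1KO and 0.28 (adjusted p = 0.0328) in AKR1A1AKO larvae. Without TMM the values were 0.19, 0.21 and 0.22, with adjusted p-values of 0.0875, 0.0847 and 0.0917. With TMM, the adjusted p of olig2 in AKR1A1AKO larvae was above 0.05 without WT 2, AKR1A1AKO 2 or AKR1A1AKO 4 (at most 0.0813). The DKO range of 12.5 to 16.6 CPM overlapped the WT range, in which WT 1 was lowest of all libraries at 8.81 CPM.

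The level of olig1 (ENSDARG00000040948), a regulator of oligodendrocyte maturation, was 4.19 ± 0.620 CPM in DKO, 3.69 ± 0.160 CPM in GLO1KO, 3.65 ± 0.644 CPM in AKR1A1AKO and 3.58 ± 0.632 CPM in WT larvae (SD, n = 6, 6, 5 and 6). Its log2 fold change in DKO against WT was 0.22 (adjusted p = 0.186), and the means did not differ beyond the spread between libraries. For sox10 (ENSDARG00000077467), needed by oligodendrocytes and by neural crest derivatives such as Schwann and pigment cells, the mean was 12.4 ± 2.06 CPM in DKO and 16.2 ± 1.53 CPM in WT larvae (SD, n = 6 each). The log2 fold change of sox10 was -0.40 (adjusted p = 0.00289), within the 1.5-fold limit. It was -0.26 (adjusted p = 0.00726) in GLO1KO and -0.12 (adjusted p = 0.227) in AKR1A1AKO larvae against WT. Library DKO 3 was at 16.2 CPM, inside the WT range, and the other 5 DKO libraries were below all WT libraries.

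In GLO1KO larvae 2 of the 9 genes, myrf and mag, were called lower than in WT and none higher, beside 17.7% lower, 6.85% higher and 24.5% in either direction among all 19758 genes tested. An adjusted p below 0.05 at any fold change was reached by 7 of them, 3 higher and 4 lower (63.1% of all genes). In AKR1A1AKO larvae the same count, again myrf and mag, was found beside 9.28% lower, 2.26% higher and 11.5% in either direction of 19892 genes, and 2 higher and 3 lower genes had an adjusted p below 0.05 at any fold change (37.6% of all genes). These comparisons and that of DKO larvae share the WT libraries. Ranges did not overlap, in the lower direction, for myrf and mag in DKO against WT (18.4% of all genes), for myrf and mag in GLO1KO (20.1%) and for myrf, mag and cldnk in AKR1A1AKO larvae (8.88%). In the higher direction this held for none of the 9 genes in DKO (19.5% of all genes), for mbpb in GLO1KO (19.4%) and for cnp in AKR1A1AKO larvae (9.96%).

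**Figure D2:**
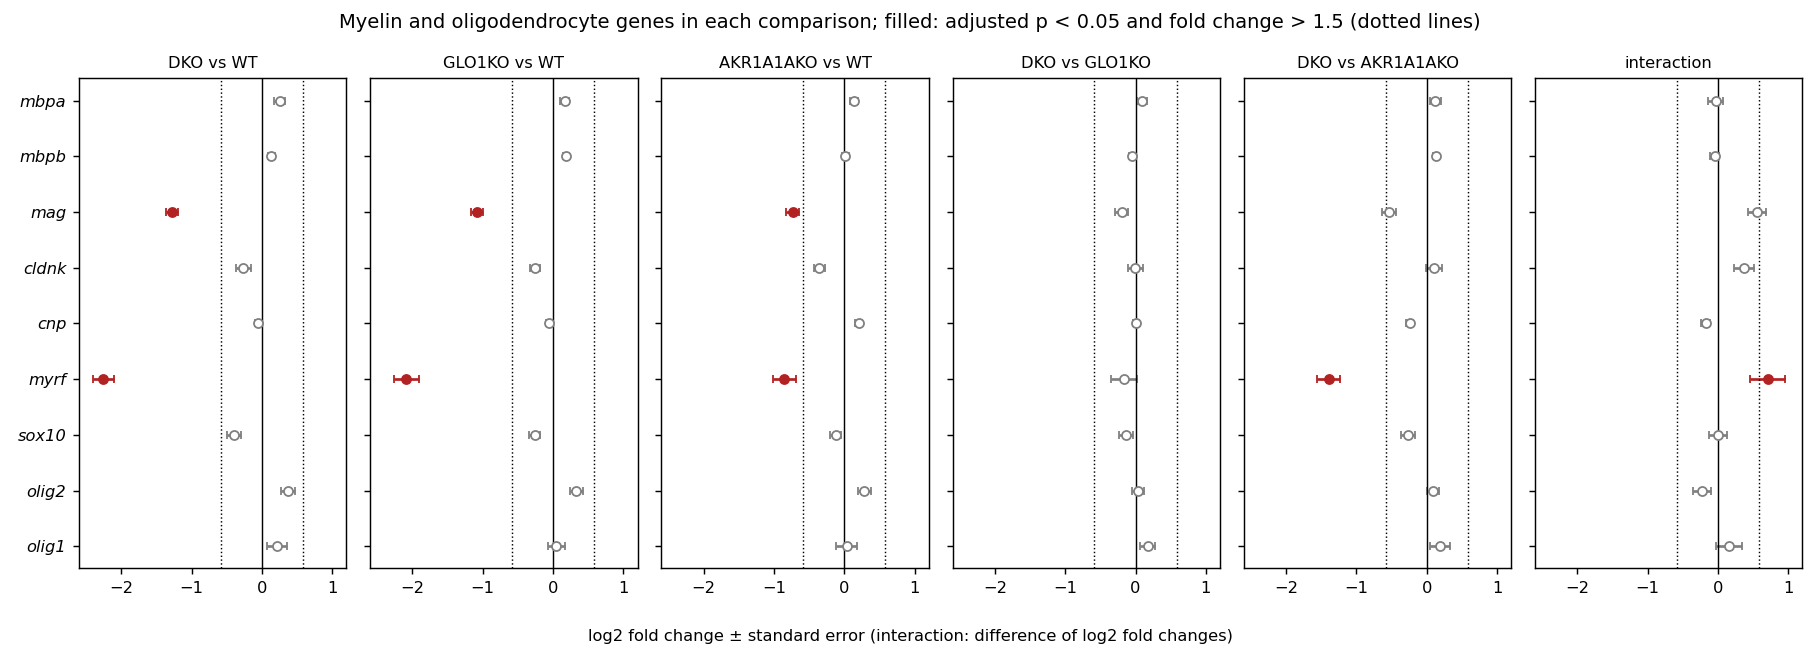
Log2 fold change ± standard error (horizontal axes) of the 9 genes in each pairwise comparison, the first-named genotype over the second, and in the interaction, a difference of log2 fold changes; filled points passed adjusted p below 0.05 and the 1.5-fold limit (dotted lines). Called points lie left of 0 for myrf and mag against WT in all 3 knockouts and for myrf in DKO against AKR1A1AKO, while the only call to the right is the interaction of myrf at 0.71.

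Between DKO and GLO1KO larvae none of the 9 genes was called by edgeR's quasi-likelihood test, and none by DESeq2 or limma-trend (1.26% of 19581 genes were called lower, 2.98% higher and 4.24% in either direction by edgeR). Of the 9 genes mag had the smallest unadjusted p in edgeR's test (0.04), which ranked 5550 among all 19581 genes. It differed by -0.20 on the log2 scale (standard error 0.0889, adjusted p = 0.141). The log2 fold change of myrf was -0.16 (standard error 0.186, adjusted p = 0.598). At any fold change, an adjusted p below 0.05 was reached by none of the 9 genes, beside 16.6% of all genes. All 9 genes overlapped in their ranges between these groups, beside 2.61% of all genes separated in the lower and 4.56% in the higher direction.

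Between DKO and AKR1A1AKO larvae myrf was called lower and none of the 9 genes higher, beside 8.11% lower, 3.76% higher and 11.9% in either direction of 19745 genes. The log2 fold change of myrf was -1.39 (standard error 0.164, adjusted p = 1.15e-05), and the call was kept when any 1 library was left out. For mag the log2 fold change was -0.54 (adjusted p = 0.000643), short of the 1.5-fold limit, and every DKO library was below every AKR1A1AKO library. It passed the limit without AKR1A1AKO 4, at -0.59, and without TMM, at -0.66. An adjusted p below 0.05 at any fold change was reached by 5 of the 9 genes, 1 higher and 4 lower (41.1% of all genes). Ranges were separate in the lower direction for myrf, mag and cnp (12.2% of all genes) and in the higher direction for mbpb (11.7%). For mbpb the log2 fold change was 0.13 (adjusted p = 0.0331), and 0.008 (adjusted p = 0.913) without TMM, when its ranges overlapped. Its adjusted p was above 0.05 in 7 of the 11 fits that left out 1 library and with replicate numbers as a block. For sox10 (-0.27, adjusted p = 0.0408), also among the 5, this held in 9 of the 11 fits and with the block.

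Whether the effect of akr1a1a loss depended on glo1 was asked with an interaction term over all 23 libraries, the effect in larvae without glo1 minus that in larvae with it. For myrf it was 0.71 (standard error 0.247, adjusted p = 0.0307), the only call among the 9 genes (10.2% of 20136 genes were called higher, 3.15% lower and 13.4% in either direction). An adjusted p below 0.05 at any size was reached by 4 of the 9 (31.8% of all genes). The loss of akr1a1a went with a log2 fold change of -0.86 where glo1 was intact and of -0.16 where it was absent. This call did not hold without WT 1, WT 2, AKR1A1AKO 3, AKR1A1AKO 5, GLO1KO 1, GLO1KO 2, GLO1KO 3 or DKO 1, each left out alone, when the value lay between 0.62 and 0.66 and the adjusted p between 0.051 and 0.0625.

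The interaction for mag was 0.55 (standard error 0.132, adjusted p = 0.00275), below the 1.5-fold limit, which it passed without AKR1A1AKO 1, AKR1A1AKO 5, GLO1KO 5 or DKO 5, at 0.61, 0.60, 0.61 and 0.61.

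Neuronal transcripts differed between the groups in the same libraries. The summed level of 29 pan-neuronal marker genes ran from 5924 to 6172 CPM in DKO, 5952 to 6408 CPM in GLO1KO, 5749 to 6155 CPM in AKR1A1AKO and 4082 to 5575 CPM in WT larvae, so that every WT library was below every knockout library. Without TMM the sums overlapped, at 5539 to 5807 CPM in DKO, 5753 to 6422 CPM in GLO1KO, 5634 to 6424 CPM in AKR1A1AKO and 4418 to 5939 CPM in WT larvae. None of these markers was at 0 in a group. WT 1, with the lowest neuronal sum, had the highest myrf level, and WT 6, with the highest sum, the lowest. In whole larvae, fewer cells of a type and less RNA per cell cannot be told apart, and the part of the neuronal difference in the results above was not tested.

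Set against the neuronal sum, the 9 genes kept different positions. Per 1000 CPM of neuronal markers, myrf was at 0.247 ± 0.0414 in DKO and 1.44 ± 0.458 in WT larvae, and mag at 2.15 ± 0.258 and 6.30 ± 1.03 in the same groups (SD, n = 6 each), or 17.1% and 34.1% of WT. The ratios of mbpa, mbpb, olig1 and olig2 in DKO larvae were 99.5%, 91.3%, 97.6% and 108.5% of those in WT larvae. Those of sox10, cldnk and cnp were 62.7%, 69.1% and 80.7% of WT.

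Within genotypes, the 4 structural genes mbpa, mbpb, mag and cldnk varied together from library to library, whereas cnp was negative with each (r from -0.24 with mag to -0.55 with mbpb). Without TMM cnp was at -0.093 with mag, -0.364 with mbpa, -0.378 with cldnk and -0.385 with mbpb. Correlations between the deviations of mbpa, mbpb, mag and cldnk from their genotype means, on the log2 CPM scale over 23 libraries, had a median Pearson r of 0.504 over the 6 pairs, with a range of 0.321 to 0.631. The points share library size and scaling, and over a set of 16522 genes the correlation of single genes with the mean deviation of these 4 genes had a median of -0.01. That measure differs from a correlation between single genes, and pairs of other genes were not computed as a reference for the 6 pairs. Across all libraries, genotype differences included, the median of the same 6 pairs was -0.05, with mag and mbpb at -0.57 and mbpa and mbpb at 0.654. Without the DKO libraries the correlations were lower, with a median r of 0.373 (-0.06 to 0.478), and they were 0.381 (0.08 to 0.497) in the median without DKO 1 and DKO 5, the libraries farthest from the median.

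**Figure D3:**
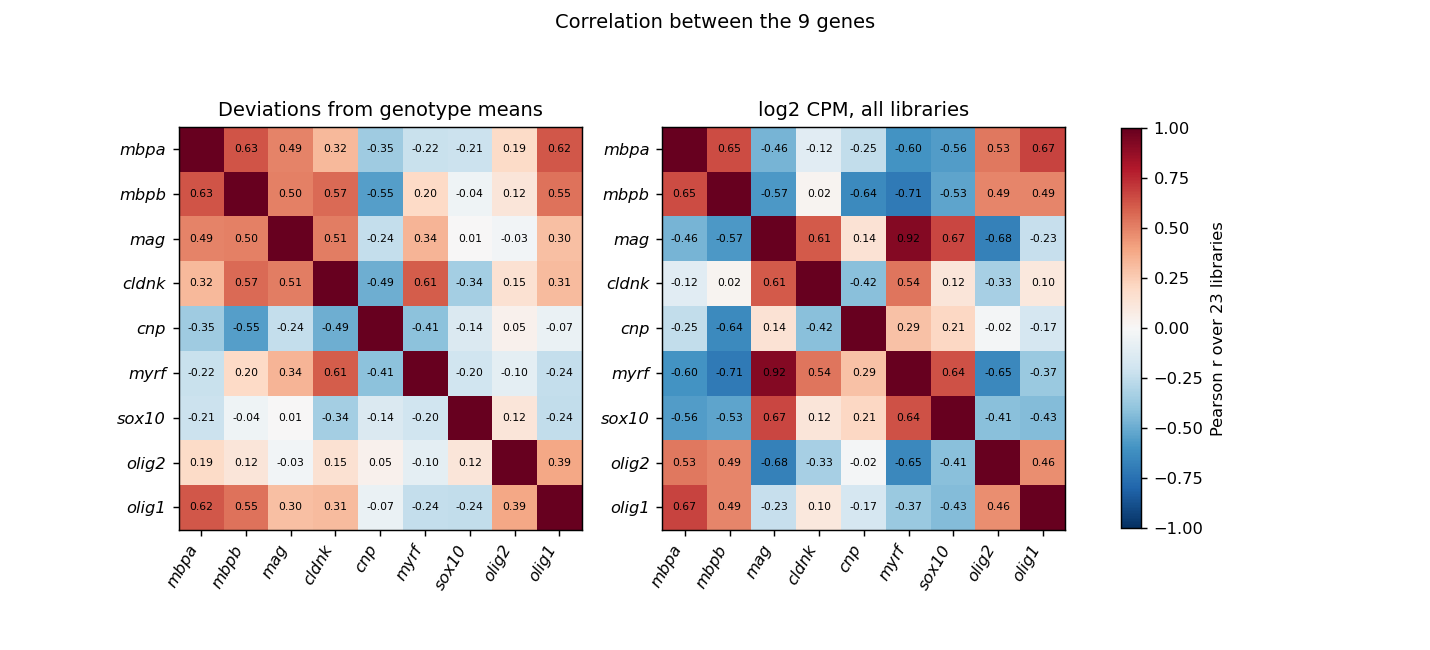
Pearson correlations between the 9 genes over 23 libraries, computed on deviations from genotype means (left) and on log2 CPM of all libraries (right); colour and printed number give r. Among mbpa, mbpb, mag and cldnk all values are positive on the left (0.321 to 0.631), while on the right mag is negative with mbpa and mbpb and reaches 0.92 with myrf.

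The other 5 genes were set against the mean deviation of the 4. Their correlation with it was 0.524 for olig1, 0.345 for myrf, 0.129 for olig2, -0.21 for sox10 and -0.49 for cnp. The highest pairs of a regulator and a structural gene were as close as pairs of structural genes, with r = 0.622 for mbpa and olig1 and 0.609 for cldnk and myrf. Other such pairs were lower, down to -0.34 for cldnk and sox10, with mbpa and myrf at -0.22. Of the genes most like the 4 by this measure, members excluded, the first was MGRN1, an E3 ubiquitin ligase gene (ENSDARG00000100072), with r = 0.853 over 23 libraries and 0.759 without the DKO libraries (n = 17). The next were pycr1a (0.780), zgc:174263 (0.777), sat2b (0.759), DCPS (0.755), SLC27A1 (0.749), MPC2 (0.749), ENSDARG00000113179 with no symbol (0.747), si:dkey-66i24.9 (0.746) and oxct1a (0.743), beside a 95th percentile of 0.416 over all 16522 genes. MGRN1 and these 9 were picked as the highest of that set, so their place above the percentile follows from the choice. Without the DKO libraries these 9 ranged from 0.421 for si:dkey-66i24.9, 0.449 for pycr1a and 0.471 for SLC27A1 to 0.668 for zgc:174263.

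The spread within DKO larvae was uneven. The mean deviation of the 4 genes from the DKO mean, on the log2 scale, was 0.253 in DKO 1 and -0.16 in DKO 5, and the deviations of the WT libraries ran from -0.07 to 0.119. Genes mbpa, mbpb, mag, cldnk, myrf and olig1 were highest in DKO 1 among DKO libraries, whereas cnp was lowest there. The level of sox10 was lowest in DKO 1 and DKO 5, at 10.8 CPM in both. What sets DKO 1 apart was not tested, and no batch or date is named for the libraries.

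Genes related to these by role were read from 5 lists that leave them out. Of 26 compact myelin and sheath genes, 5 were called lower and 1 higher in DKO than in WT larvae (19.2% and 3.85%, beside 18.0% and 7.32% of all genes). The lower ones were CLDN19, encoding a tight junction protein, at 2.51 ± 0.441 CPM in DKO and 10.4 ± 1.40 CPM in WT larvae (SD, n = 6 each, log2 fold change -2.05, adjusted p = 9.92e-09), prx, encoding the Schwann cell scaffold periaxin (-0.80), mpzl1l (-0.67), GPR37L1 (-0.92) and ASPA (-0.90). GPR37L1 is also in the list of radial glia and astroglia markers, so its call is counted in both lists. The higher one of the sheath list was a copy of NDRG1 (ENSDARG00000010420, 0.66), and ASPA and NDRG1 were named after their values were seen. The peripheral myelin genes pmp22a and PMP22 had log2 fold changes of -0.02 (adjusted p = 0.833) and -0.32 (adjusted p = 0.000315), neither past the 1.5-fold limit.

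Among 34 regulators of the oligodendrocyte lineage, 4 were called lower and 1 higher in DKO larvae (11.8% and 2.94%, beside 18.0% and 7.32% of all genes). The median log2 fold change of the list was 0.17. GPR17, a receptor gene of premyelinating oligodendrocytes, was at 0.427 ± 0.157 CPM in DKO, 0.643 ± 0.0987 CPM in GLO1KO, 1.31 ± 0.282 CPM in AKR1A1AKO and 2.88 ± 0.657 CPM in WT larvae (SD, n = 6, 6, 5 and 6), with a log2 fold change of -2.75 in DKO against WT (adjusted p = 2.26e-07). A copy of SOX9 (ENSDARG00000003293), a glial fate factor, was at 11.9 ± 0.727 CPM in DKO and 27.2 ± 0.734 CPM in WT larvae (SD, n = 6 each, -1.20, adjusted p = 1.16e-09). The other SOX9 copy (ENSDARG00000043923) was at 39.3 ± 8.87 CPM in DKO and 35.2 ± 2.29 CPM in WT larvae (SD, n = 6 each, 0.15, adjusted p = 0.273). A copy of LINGO1 (ENSDARG00000034165), an inhibitor of myelination in mammals, fell by 1.14 on the log2 scale (adjusted p = 3.94e-08). The other LINGO1 copy (ENSDARG00000035899) had a log2 fold change of 0.13 (adjusted p = 0.197). HDAC1 was higher by 0.39 (adjusted p = 2.89e-06), within the 1.5-fold limit. CSPG4, a gene of oligodendrocyte precursors and pericytes in mammals, fell by 2.24 (adjusted p = 3.08e-06), and ascl1b, a proneural factor, was higher by 0.65 (adjusted p = 0.000214), both named after their values were seen.

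Of 29 Schwann cell genes 10 were called lower and none higher in DKO than in WT larvae (34.5% lower, beside 18.0% of all genes), with a median log2 fold change of -0.35. The cell adhesion genes l1cama and l1camb, also used by neurons, had log2 fold changes of -1.28 (adjusted p = 5.75e-09) and -1.61 (adjusted p = 5.07e-09). These and 3 copies of ITGB1, an integrin gene of many cell types, made up 5 of the 10. The rest were ERBB2 (-1.71, adjusted p = 1.78e-06), erbb3b (-0.88, adjusted p = 6.49e-05), copies of LGI2 (-1.81 and -0.81) and a copy of NAB1 (ENSDARG00000040700, -0.99). The paralog of erbb3b, ERBB3 (ENSDARG00000006202), was not called (-0.30, adjusted p = 0.0298). The other NAB1 copy (ENSDARG00000042940) went the other way, at 0.58 (adjusted p = 5.98e-05), just within the 1.5-fold limit. It averaged 15.2 CPM in DKO and 10.1 CPM in WT larvae, and the copy called lower 1.85 and 3.64 CPM. Of other genes used as Schwann cell markers and regulators, EGR2 (0.03, adjusted p = 0.771), S100B (0.07, adjusted p = 0.474), ADGRG6 (-0.09, adjusted p = 0.48), pou3f1 (0.31, adjusted p = 0.00666) and FOXD3 (-0.56, adjusted p = 1.94e-05) were not called. These, ERBB2, erbb3b, LGI2, NAB1 and ITGB1 were named after their values were seen. The list's summed level was 547.9 to 593.6 CPM in DKO and 721.1 to 828.8 CPM in WT larvae, with no overlap. In GLO1KO larvae 11 of the 29 genes were called lower than in WT (37.9%, beside 17.7% of all genes), and in AKR1A1AKO larvae 4 (13.8%, beside 9.28%).

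Axon-glia junction genes, most of which neurons express, were called lower for 7 of 24 and higher for none in DKO against WT larvae (29.2% lower, beside 18.0% of all genes). The potassium channel gene KCNA1 (ENSDARG00000062942), whose product lies beside nodes of Ranvier, was at 6.22 ± 0.590 CPM in DKO and 16.4 ± 0.771 CPM in WT larvae (SD, n = 6 each), with a log2 fold change of -1.41 (adjusted p = 1.96e-09). For myelin lipid synthesis 8 of 38 genes were called lower and none higher (21.1% lower, beside 18.0% of all genes). They included CERS2 (ENSDARG00000013704), a ceramide synthase of very long chain sphingolipids, at -1.20 (adjusted p = 3.32e-06), which is also active in many other tissues. The other CERS2 copy (ENSDARG00000058992) had a log2 fold change of -0.51 (adjusted p = 6.21e-05), within the 1.5-fold limit.

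**Figure D4:**
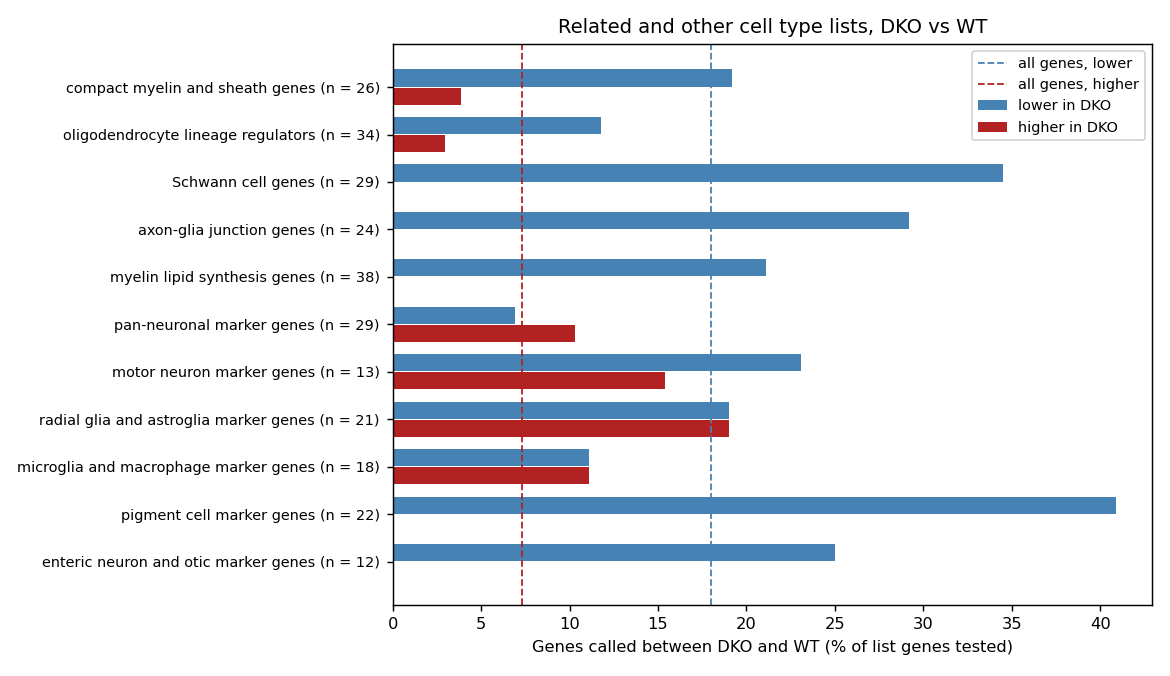
Share of each gene list called lower (blue) or higher (red) in DKO against WT larvae, as a percentage of the list genes tested (n beside each name); dashed lines give the shares of all genes, 18.0% lower and 7.32% higher. The Schwann cell list (34.5% lower) and the pigment cell list (40.9% lower) reach farthest, and the pan-neuronal list has 10.3% higher and 6.90% lower.

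Markers of other cells in the larvae were also among the genes called, and their part in the results on the 9 genes was not tested. Of 22 pigment cell marker genes, a neural crest lineage that also depends on sox10, 9 were called lower and none higher in DKO than in WT larvae (40.9%), including TYR, the first enzyme of melanin synthesis, with a log2 fold change of -1.56 (adjusted p = 7.47e-08). Their summed level was 956.7 to 1045 CPM in DKO and 1028 to 1243 CPM in WT larvae, which overlapped, and without TMM 897.9 to 982.3 CPM in DKO and 1096 to 1316 CPM in WT larvae, which did not. Of 21 radial glia and astroglia markers 4 were called higher (19%), among them FABP7 (0.83), and 4 lower (19%), among them a copy of SLC1A3 (ENSDARG00000043148, -1.12) and AQP4 (-1.38). The other SLC1A3 copy (ENSDARG00000104431) had a log2 fold change of 0.006 (adjusted p = 0.95). Of the 29 pan-neuronal genes 3 were called higher (10.3%), among them a copy of SNAP25 (0.79) and gap43 (0.74), and 2 lower (6.9%), among them mapta (-0.79). Counts of genes called higher and lower were 2 and 3 of 13 for motor neurons (15.4% and 23.1%), 2 and 2 of 18 for microglia and macrophages (11.1% each), and 0 and 3 of 12 for enteric neurons and the ear (0% and 25%). Over all genes tested in DKO against WT, 7.32% were called higher and 18.0% lower.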

How the data were processed

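Strand-specific mRNA libraries were made from total RNA of 23 pools of larvae. SOAPnuke was used by the authors for read filtering, HISAT2 for alignment (GRCz11) and featureCounts (2.0.3) for counting per gene. The strand setting and the handling of reads that fit several genes are not given in the sources used here. The authors deposited the values without normalization, and here they are read like estimated counts, since 94 genes (0.411%) hold values that are not whole, none of them among the 9 genes reported. Values were rounded to whole numbers.

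Symbols were paired with 20170 of 22856 gene IDs (88.2%), and capitals are as in the table. Gene lengths of the authors' build were not used, so levels are not compared between genes. Groups were compared pairwise, and by an interaction over all libraries, with edgeR (4.0.16; TMM, filterByExpr, quasi-likelihood test) in R (4.3.3), adjusted over all genes tested. CPM and correlations used all libraries and log2 CPM with a prior count of 2. Scripts were tested on simulated data. Alternatives were DESeq2 (1.42.0) and its size factors, library size alone, limma-trend (3.58.1), no filter, no fold limit, 1 fit for all libraries, a replicate block and leaving out each library.

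The 9 genes and the lists were chosen with earlier results of these data known. The rule on symbols took 10 genes, and 1 of them, some genes of the lists and all results that need them are not reported here. Named besides the 9 were glo1, up to 4 genes per list with the smallest p in DKO against WT, and the 10 genes with mean log2 CPM above 1 most correlated with mbpa, mbpb, mag and cldnk within genotypes. Exceptions are marked. Added were pmp22a and PMP22 as structural myelin genes of the lists, the other copies of SOX9, LINGO1, SLC1A3, NAB1 and CERS2, and ERBB3 beside erbb3b. Correlations without DKO libraries or without the 2 farthest libraries were added after seeing the data.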

Additional observations from a re-analysis of the deposited data

Results flagged for a closer look

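In 2 of 80 groups of libraries, 1 library stood far from the rest by Dixon's criterion, where chance gives about 4. These were cldnk in DKO 1 at 18.3 CPM (next 13.1 CPM) and mbpa in WT 1 at 50.8 CPM (next 57.0 CPM). The effect of akr1a1a loss had an adjusted p below 0.05 for a difference between larvae without and with glo1, by the interaction term in edgeR's quasi-likelihood test, for myrf (0.71, adjusted p = 0.0307), mag (0.55, adjusted p = 0.00275), cldnk (0.37, adjusted p = 0.0476) and cnp (-0.18, adjusted p = 0.0338). Of these, myrf alone passed the 1.5-fold limit. When 1 library was left out, mag stayed below 0.05 in all 23 fits (at most 0.00786), whereas cldnk was above it in 16 (at most 0.0879), cnp in 9 (at most 0.0607) and myrf in 8 (at most 0.0625). For cldnk it was also above 0.05 without TMM (0.0533), with DESeq2's size factors (0.056), without the filter on low counts (0.052) and with limma-trend (0.0518).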

How the results depend on the processing

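Calls among the 9 genes were the same under DESeq2, its size factors, limma-trend, no filter on low counts, 1 fit for all libraries and the replicate block. Without the fold limit, members with an adjusted p below 0.05 numbered 7 in DKO, 7 in GLO1KO and 5 in AKR1A1AKO against WT, 5 in DKO against AKR1A1AKO and 4 in the interaction, and all genes 12063, 12460, 7470, 8117 and 6409, with 3253 in DKO against GLO1KO. Library size alone gave 681 genes higher and 4856 lower in DKO against WT (1447 and 3560 with TMM), 761 and 4431 in GLO1KO against WT (1353 and 3488), 426 and 2386 in DKO against AKR1A1AKO (743 and 1602) and 521 and 345 in DKO against GLO1KO (584 and 246). It gave 2 called members in DKO against AKR1A1AKO (1 with TMM), mag passing the fold limit. It moved the median of all genes to -0.18, -0.13, -0.11 and -0.06. By its construction it also turned 10 small log2 fold changes that were not called: mbpb in DKO (-0.041) and AKR1A1AKO (-0.049) against WT, olig1 in GLO1KO (-0.079) and AKR1A1AKO (-0.030) against WT, cnp (-0.0434) and olig2 (-0.0151) in DKO against GLO1KO, mbpa (-0.00197), cldnk (-0.0230) and olig2 (-0.0310) in DKO against AKR1A1AKO, and the sox10 interaction (-0.00306). The last was also negative with DESeq2 (-0.0112), its size factors (-0.0113) and limma-trend (-0.00985), and cldnk in DKO against GLO1KO was 0.00500 in 1 fit for all libraries. Why the signs of sox10 and cldnk turned under these other settings was not tested.

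Leaving out 1 library gave 2 to 2 called members in DKO, 2 to 2 in GLO1KO and 2 to 2 in AKR1A1AKO against WT, 0 to 0 in DKO against GLO1KO, 1 to 2 in DKO against AKR1A1AKO and 0 to 2 in the interaction. All genes called in these fits numbered 4532 to 5298 in DKO, 4378 to 5185 in GLO1KO and 1715 to 2687 in AKR1A1AKO against WT. They numbered 678 to 914 in DKO against GLO1KO, 2127 to 2523 in DKO against AKR1A1AKO and 2259 to 3064 in the interaction. Signs turned within -0.0403 to 0.11 (olig1, GLO1KO against WT), -0.0570 to 0.10 (olig1, AKR1A1AKO against WT), -0.00638 to 0.0292 (mbpb, AKR1A1AKO against WT), -0.12 to 0.0407 (cldnk) and -0.00826 to 0.0376 (cnp) in DKO against GLO1KO, -0.0183 to 0.15 (cldnk, DKO against AKR1A1AKO), and -0.10 to 0.0102 (mbpa) and -0.0893 to 0.0515 (sox10) in the interaction. Whether replicate numbers pair the libraries cannot be told, since libraries with different numbers were not compared. Of 33 same-numbered pairs, 6 had a correlation over 0.1 (-0.127 to 0.210), all between WT and a single knockout. With the replicate block the called members numbered 2, 2, 2, 0, 1 and 1 in the 6 comparisons, and 1448 genes were higher and 3462 lower in DKO against WT. In AKR1A1AKO against WT the block gave 583 genes higher and 2122 lower (450 and 1846 without it). With 38 to 71 counts of myrf in DKO and GLO1KO libraries, counting error limits what can be said of a difference between these groups.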
